A study of Mus musculus with 20 samples.

Results

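The 10 genes described here encode the enzymes and partners that place methyl groups on lysine 9 of histone H3 (H3K9) and hold retroelements silent: Trim28, Setdb1, Ehmt1, Ehmt2, Suv39h1, Suv39h2, Daxx, Morc3, Chaf1a and Chaf1b. They were taken by gene symbol from the deposited gene tables, which list 24411 genes, and all 10 had enough reads to be tested in every comparison. Mouse embryos made by in vitro fertilisation and cultured in KSOM medium were pooled, 10 to a library, and RNA-seq gave 16 libraries. The series asks how Pcgf5, a Polycomb gene driven by the retrovirus MERVL, bears on the shutdown of zygotic genome activation, when the embryo starts to transcribe its own genes.

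In the knockdown experiment, embryos were electroporated at the one-cell stage with siRNA against Pcgf5 (siPcgf5) or with a non-targeting siRNA (siControl). Late 2-cell embryos were taken 36 hours after insemination and morulae at 72 hours, with 2 libraries in each of the 4 groups. In the knockout experiment, 4-cell embryos at 48 hours were homozygous (Homo KO, 3 libraries) or heterozygous (Hetero KO, 3 libraries) for loss of the MT2C_Mm element of Pcgf5, or wild type (WT, 2 libraries). Elements with MT2 names are the long terminal repeats of MERVL and its relatives. The labels give no electroporation for the 4-cell embryos. Wherever 4-cell libraries are set against knockdown libraries below, stage and experiment cannot be told apart. A pool averages over embryos, and fewer cells that hold a transcript cannot be told apart from less of it per cell. The labels do not say that replicate libraries came from separate cultures, so p-values reflect only how these libraries vary.

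H3K9 methylation marks chromatin for binding by HP1 proteins and is the main histone mark over silent retroelements. KRAB zinc finger proteins bind retroelement DNA and recruit TRIM28, a scaffold that brings SETDB1, which trimethylates H3K9. EHMT1 and EHMT2 act as a pair in mono- and dimethylation, SUV39H1 and SUV39H2 trimethylate H3K9 at pericentromeric repeats, DAXX loads the histone variant H3.3, MORC3 is an ATPase of nuclear bodies, and CHAF1A with CHAF1B form most of CAF-1, which assembles histones on replicating DNA. In mouse embryonic stem cells, loss of TRIM28, EHMT2 or CAF-1 is known to raise MERVL.

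The promoters of Trim28 and Suv39h2 are shown because these genes had the largest rise and the largest fall among the 10 between the siControl late 2-cell stage and the siControl morula. Each runs from 250 bases before the RefSeq gene start to 50 after it on GRCm38.p6, the assembly of mm10, 5′ to 3′ on the gene's strand, with motif matches in capitals. The Trim28 window is chr7:13023902-13024201 on the plus strand, and the Suv39h2 window is chr2:3474937-3475236 on the minus strand.
Trim28: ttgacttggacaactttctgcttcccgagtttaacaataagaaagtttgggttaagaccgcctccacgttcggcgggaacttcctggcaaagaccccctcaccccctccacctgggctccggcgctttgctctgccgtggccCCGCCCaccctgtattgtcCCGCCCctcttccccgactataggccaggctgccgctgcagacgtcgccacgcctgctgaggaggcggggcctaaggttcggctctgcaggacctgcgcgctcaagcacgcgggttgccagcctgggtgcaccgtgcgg
Suv39h2: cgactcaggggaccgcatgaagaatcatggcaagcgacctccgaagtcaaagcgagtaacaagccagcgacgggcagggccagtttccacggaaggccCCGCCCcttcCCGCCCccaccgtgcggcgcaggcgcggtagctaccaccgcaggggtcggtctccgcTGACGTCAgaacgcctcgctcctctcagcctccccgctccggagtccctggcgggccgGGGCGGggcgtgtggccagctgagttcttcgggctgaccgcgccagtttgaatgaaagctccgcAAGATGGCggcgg
The GC box (GGGCGG, bound by SP factors, read as CCGCCC on the other strand) starts at positions -108 and -89 from the gene start in Trim28, and at -152, -142 and -27 in Suv39h2. Suv39h2 also holds the cyclic AMP response element (CRE) TGACGTCA at -85 and the YY1 sequence AAGATGGC at 38. Searched on both strands, the GC box was in a promoter of 10 of the 10 genes and in 35.7% of all 32851 RefSeq promoter windows of this length. A member was counted if any of its windows matched (Daxx had 3 windows, Ehmt2 and Suv39h1 2 each). The background share counts single windows, so the 2 are not like for like. The CRE was in Suv39h2 alone of the 10 and in 1.79% of windows, and the YY1 sequence was in 2 of the 10 (Suv39h1 too) and in 2.75%. The CCAAT box (CCAAT) was in 5 of the 10 genes, against 37.4% of windows. The ETS sequence CCGGAAGT was in Daxx alone, against 3.89% of windows. The NRF1 sequence GCGCATGC was in Morc3 alone, against 2.71% of windows. No member window held the E2F sequences TTTCCCGC or TTTGGCGC, which were in 1.07% and 0.514% of windows. Trim28 held 23 CpG dinucleotides and Suv39h2 held 33, against a median of 7 over all windows. The windows of all 10 genes held 15 to 40, and the part of this base content in the GC box matches was not tested. The motifs and their lengths were chosen after the member promoters had been seen, and longer forms of the YY1 and NRF1 sequences, searched first, matched fewer members. A match describes these letters only.

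Library depth ran from 14310634 to 55620137 summed expected counts, and the 10 genes together took 0.0261% to 0.0537% of a library. Levels are CPM, expected counts scaled to a common library size. Pcgf5 itself stood at 53.9 and 89.4 CPM in siPcgf5 late 2-cell libraries, against 316 and 811 CPM in siControl, and at 39.5 and 32.4 CPM in siPcgf5 morulae, against 246 and 166 CPM in siControl. In Homo KO 4-cell libraries it stood at 191, 211 and 162 CPM, in Hetero KO at 336, 252 and 284 CPM, and in WT at 328 and 294 CPM. The Pcgf5 groups did not overlap in either knockdown comparison or between Homo KO and WT, but no difference passed with edgeR over all genes (adjusted p 0.0789, 0.242 and 0.236). The 2 siControl late 2-cell libraries stood further apart than the other knockdown pairs (chi-square per gene 169, against 43.3 to 50.2). This measure grows with depth, so the values of the shallower 4-cell pairs (44.1 to 71.2) cannot be set directly against it. Embryo marker sums followed the labelled stages: 8 morula genes summed to 464 to 537 CPM in morula libraries and to 32.8 to 112 CPM elsewhere. Markers of other cells moved with the groups too, and their part in the results was not tested. The 5 blood genes summed to 16.5 to 39.0 CPM in morula and to 248 to 354 CPM in late 2-cell libraries, with 328 to 354 CPM in siPcgf5 against 248 to 255 CPM in siControl at the late 2-cell stage. At the 4-cell stage they summed to 61.7 to 83.3 CPM in Homo KO, 18.8 to 47.6 CPM in Hetero KO and 20.2 to 48.3 CPM in WT. Only 2 or 3 of the 5 blood genes were above 0 in late 2-cell libraries, and 1 or 2 elsewhere. Few genes thus carried these sums. The beta globin genes Hbb-bs and Hbb-bt were at 0 in every library. The 8 cumulus and granulosa cell genes summed to 0 to 0.263 CPM in morula and to 21.1 to 38.6 CPM in late 2-cell libraries. There 4 to 6 of the 8 were above 0 and 1 to 3 reached 1 CPM. At the 4-cell stage these genes summed to 5.04 to 13.8 CPM in Homo KO, 0.889 to 2.19 CPM in Hetero KO and 1.71 to 2.21 CPM in WT. Amh was at 0 in every library. The 5 sperm genes summed to 0.748 to 1.58 CPM in morula and to 10.3 to 14.3 CPM in late 2-cell libraries.

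**Figure D1:**
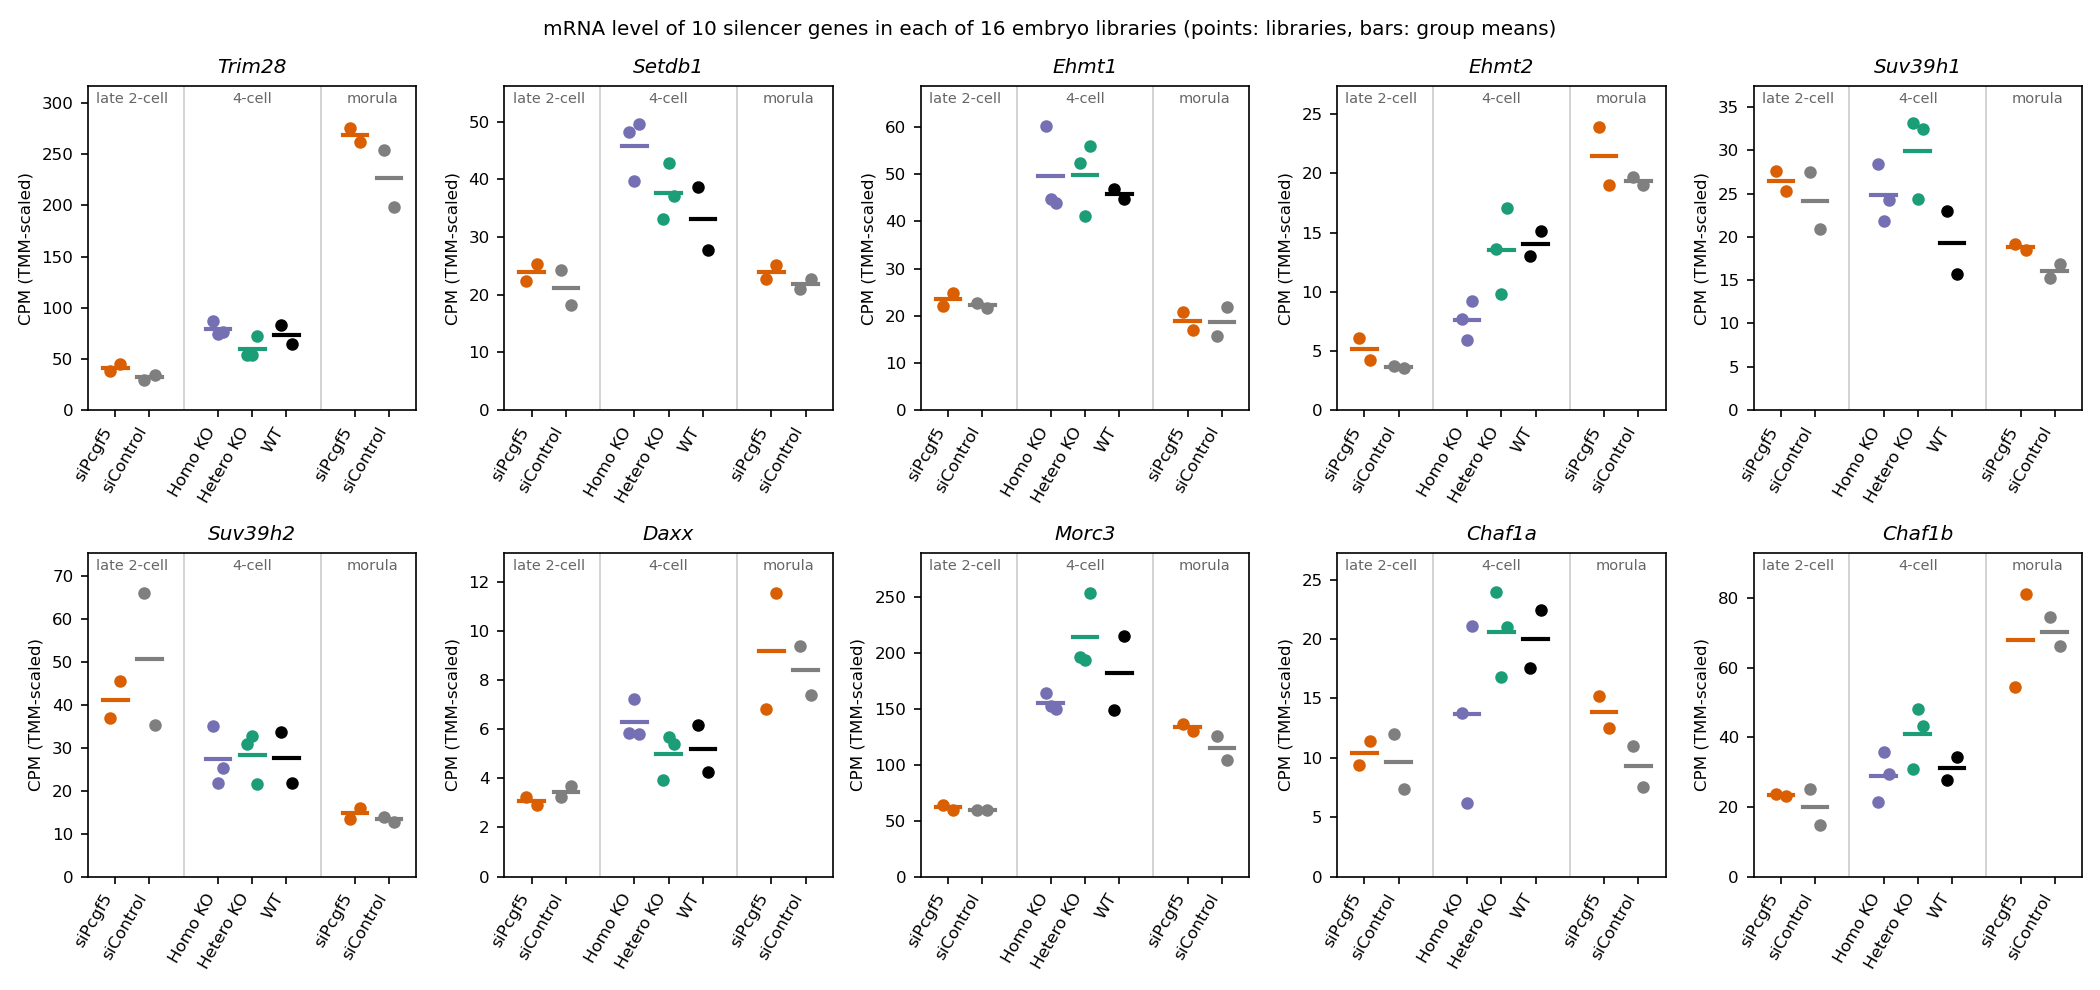
CPM of the 10 genes (linear axes from 0) in each library, by stage from left to right, with points for libraries and bars for group means. Trim28 stood at 199 to 275 CPM in the 4 morula libraries, above its 29.3 to 44.7 CPM at the late 2-cell stage, while Suv39h2 stood lowest in morulae, at 12.8 to 15.9 CPM.

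Members moved in both directions from late 2-cell embryos to morulae. In siControl embryos, 5 genes rose (Trim28, Ehmt2, Chaf1b, Daxx and Morc3, the last at -0.05 on the log2 TPM scale) and 1 fell (Suv39h2), with edgeR's quasi-likelihood test and Benjamini-Hochberg adjustment at 0.05. Of all 16980 genes tested, 24.9% rose and 28.1% fell, 52.9% in all, so 6 of 10 members called was near the background. Morula and late 2-cell libraries did not overlap for 7 members, and for 78.8% of all genes. The members' median log2 fold change was 0.50, and that of all genes -0.34. In the separate siPcgf5 libraries all 5 rose again and Suv39h2 fell again, where 24.5% of all genes rose and 28.2% fell, 52.7% in all, and 9 members did not overlap against 80.6% of genes. How many of all genes were called in both comparisons was not counted, so this repeat is not read as particular to the members. The whole-transcriptome centre depends on the scale: on log2(TPM + 1) with limma the median of all genes moved by -0.78 in siControl and 25.0% of called genes were higher, against 47.0% with edgeR.

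Trim28, the scaffold, stood higher at each later stage, with the 4-cell libraries taken from the separate knockout experiment. It stood at 38.4 and 44.7 CPM in the 2 siPcgf5 late 2-cell libraries, against 29.3 and 34.4 CPM in their siControl counterparts. At the 4-cell stage it stood at 87.3, 73.9 and 76.3 CPM in Homo KO, at 53.4, 53.9 and 72.7 CPM in Hetero KO and at 82.8 and 64.4 CPM in WT. Trim28 reached 275 and 262 CPM in the siPcgf5 morulae, against 254 and 199 CPM in siControl morulae, so no library of a later stage was as low as any of an earlier one. With siControl the morula level was 7.15 times that of the late 2-cell stage (2.84 on the log2 scale, SE 0.23, adjusted p 4.8e-06 with edgeR) and with siPcgf5 6.37 times (2.67, SE 0.23, adjusted p 7.1e-06). Leaving out siControl late 2-cell library 1 or 2 gave 2.73 and 2.92. Over all 11 other settings the log2 values ran from 1.76 to 3.01 in siControl and from 1.76 to 2.80 in siPcgf5, so the size of the rise depends on the setting. The span of Trim28 overlaps the coding gene Gm31649, which was not analysed here.

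Setdb1, the methyltransferase that TRIM28 recruits, did not follow it. Setdb1 stood at 22.5 and 25.3 CPM in the 2 siPcgf5 late 2-cell libraries, against 24.3 and 18.2 CPM in their siControl counterparts, and at 22.7 and 25.2 CPM in the 2 siPcgf5 morula libraries, against 21.0 and 22.6 CPM in their siControl counterparts. All 8 of the 4-cell libraries, at 27.8 to 49.5 CPM, lay above all of these. Its log2 fold change between morula and late 2-cell was 0.05 in siControl (95% interval -0.56 to 0.65), with a sign that turned under other settings. With limma on log2(TPM + 1) it was -0.79 and passed (adjusted p 0.0258). Per gene length, in TPM, Setdb1 stood at 0.0676 ± 0.0150 of the Trim28 level in siControl morulae and at 0.465 ± 0.147 in siControl late 2-cell libraries (SD, n = 2 each). Reads of Setdb1 and of Cers2, whose span overlaps it, could be mixed because the counting strand is not given in the sources used here. Cers2 rose by 3.20 (SE 0.31) in the siControl stage comparison.

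The paired methyltransferases Ehmt1 and Ehmt2 had separate courses. Ehmt2 stood at 6.09 and 4.27 CPM in the 2 siPcgf5 late 2-cell libraries, against 3.71 and 3.53 CPM in their siControl counterparts, and at 23.9 and 18.99 CPM in the 2 siPcgf5 morula libraries, against 19.7 and 19.01 CPM in their siControl counterparts. It rose by 2.43 (SE 0.35, edgeR adjusted p 0.0002) in siControl and by 2.03 (SE 0.34, adjusted p 0.00059) in siPcgf5. Over the 11 other settings these values ran from 1.02 to 2.47 and from 0.89 to 2.30. Ehmt1 stood at 22.1 and 24.8 CPM in the 2 siPcgf5 late 2-cell libraries, against 22.8 and 21.7 CPM in their siControl counterparts, and at 20.8 and 16.9 CPM in the 2 siPcgf5 morula libraries, against 15.6 and 21.8 CPM in their siControl counterparts. The morula-to-late-2-cell fold change of Ehmt1 was -0.24 in siControl (95% interval -0.88 to 0.40) and did not pass with edgeR. Limma on log2(TPM + 1) called Ehmt1 lower, at -1.01 in siControl (adjusted p 0.0095) and -1.002 in siPcgf5 (adjusted p 0.0104). On that scale the median of all genes moved by -0.78 in siControl. On the TPM scale, Ehmt2 stood at 1.42 ± 0.37 of the Ehmt1 level in siControl morulae and at 0.222 ± 0.0012 in siControl late 2-cell libraries (SD, n = 2 each).

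At the 4-cell stage Ehmt1 stood higher than at either other stage. Its 8 libraries ran from 41.2 to 60.2 CPM, in Homo KO, Hetero KO and WT alike, against 15.6 to 24.8 CPM in the 8 knockdown libraries. WT 4-cell embryos held more Ehmt1 than siControl late 2-cell embryos (1.04, SE 0.27, edgeR adjusted p 0.0078), a call lost in 3 of 10 other settings with values of 0.62 to 1.22 (with limma on TPM, with only the groups compared, and at 0.96 without siControl late 2-cell library 2). Morulae of siControl held less than WT 4-cell embryos (-1.29, SE 0.27, adjusted p 0.0019). The 4-cell libraries come from the knockout experiment, for which the labels give no electroporation, so stage and experiment cannot be told apart here.

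Suv39h2 fell and Suv39h1 did not pass. Suv39h2 stood at 36.8 and 45.4 CPM in the 2 siPcgf5 late 2-cell libraries, against 65.9 and 35.3 CPM in their siControl counterparts. At the 4-cell stage it stood at 21.6 to 35.0 CPM over 8 libraries, and in morulae it had 13.5 and 15.9 CPM with siPcgf5 and 13.9 and 12.8 CPM with siControl. All 4 morula libraries lay below all others. Suv39h2 fell by 1.92 on the log2 scale in siControl (SE 0.33, edgeR adjusted p 0.00059), with morulae at 0.265 of the late 2-cell level, and by 1.50 in siPcgf5 (SE 0.32, adjusted p 0.0026). Without siControl late 2-cell library 1, the higher one, the siControl value was -1.39, and without library 2 it was -2.34. Dclre1c, whose span overlaps Suv39h2, rose by 3.28 (SE 0.47) in the same comparison.

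Suv39h1, which lies on chromosome X, stood at 20.9 to 27.6 CPM in the 4 late 2-cell libraries and at 15.3 to 19.2 CPM in the 4 morula libraries, without overlap. Its log2 fold change was -0.58 in siControl (95% interval -1.19 to 0.02, edgeR adjusted p 0.094) and -0.51 in siPcgf5 (adjusted p 0.14). With DESeq2 size factors the siControl value was -0.76 and passed. In TPM, Suv39h2 stood at 0.607 ± 0.080 of the Suv39h1 level in siControl morulae and at 1.48 ± 0.36 in siControl late 2-cell libraries (SD, n = 2 each). Oocyte mRNAs (6 genes) summed to 28.2 to 63.6 CPM in morula libraries and to 2117 to 3222 CPM in late 2-cell libraries, and the part of such stored mRNA in the Suv39h2 level was not tested.

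**Figure D2:**
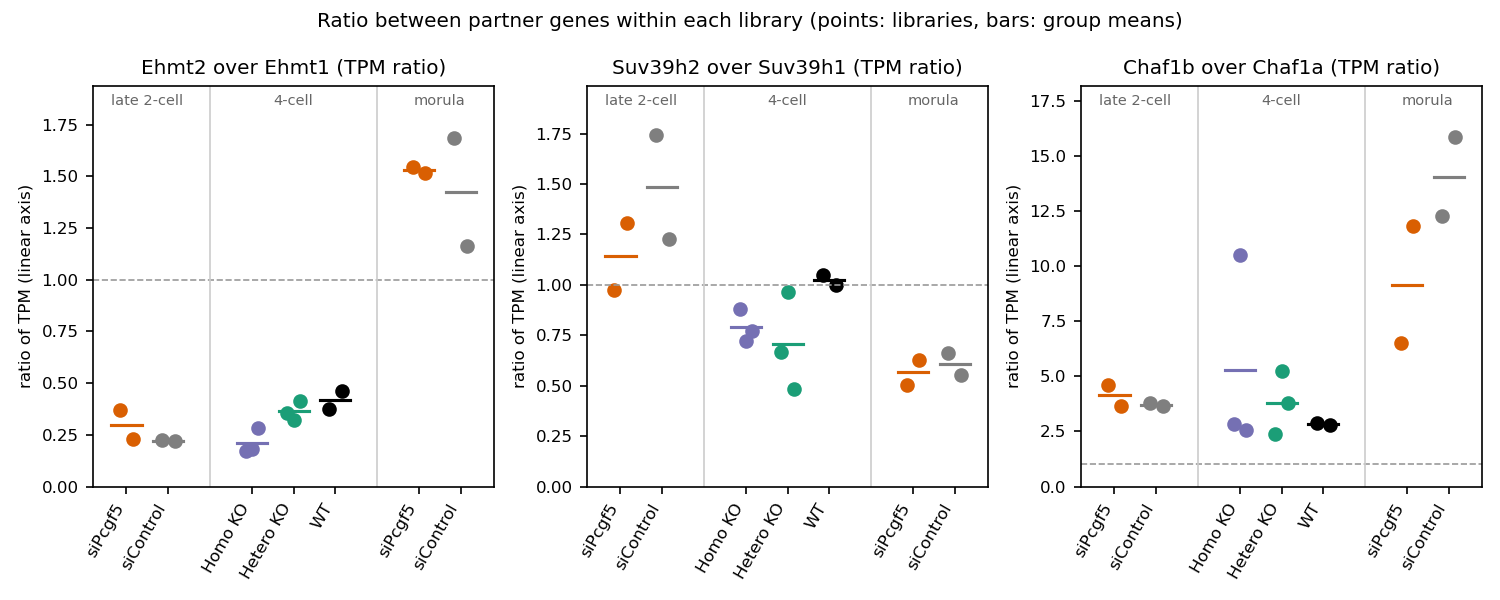
Ratio of TPM between partner genes in each library (linear axes; dashed line at equal level), with points for libraries and bars for group means. Ehmt2 stood at 1.16 to 1.68 of Ehmt1 in morulae and at 0.173 to 0.463 in all earlier libraries, and Chaf1b stood 6.51 to 15.9 times as high as Chaf1a in morulae, a range that 1 Homo KO library (10.5) shares.

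Of Daxx and Morc3, the members tied to H3.3 loading and nuclear bodies, Daxx had the lower mRNA level. It stood at 3.22 and 2.91 CPM in the 2 siPcgf5 late 2-cell libraries, against 3.23 and 3.68 CPM in their siControl counterparts, and at 6.80 and 11.6 CPM in the 2 siPcgf5 morula libraries, against 9.39 and 7.41 CPM in their siControl counterparts. The groups did not overlap, and Daxx rose by 1.29 in siControl (SE 0.45, edgeR adjusted p 0.033) and by 1.57 in siPcgf5 (SE 0.45, adjusted p 0.014). The siControl call was lost in 7 of 11 other settings, with values of 0.20 to 1.46, and the siPcgf5 call in 4 of 11, with values of 0.46 to 1.91. In siPcgf5 these were limma on TPM (0.46) and the fits without late 2-cell library 1 (1.63), late 2-cell library 2 (1.501) or morula library 2 (1.13).

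Morc3 was the most abundant member per length at the late 2-cell stage, at 23.4 ± 1.6 TPM in siControl (SD, n = 2). It stood at 59.3 to 64.2 CPM in the 4 late 2-cell libraries, at 149 to 254 CPM in the 8 libraries of the 4-cell stage and at 104 to 137 CPM in the 4 morula libraries, with no overlap between stages. Morc3 rose by 0.95 (SE 0.20, edgeR adjusted p 0.0026) in siControl and by 1.09 (SE 0.21, adjusted p 0.0012) in siPcgf5 morulae, although on the log2 TPM scale the siControl value was -0.05 and the siPcgf5 value 0.21, which did not pass (limma adjusted p 0.345). WT 4-cell embryos stood 1.61 (SE 0.22) above siControl late 2-cell embryos.

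The CAF-1 subunits differed as well. Chaf1b stood at 23.8 and 23.1 CPM in the 2 siPcgf5 late 2-cell libraries, against 25.0 and 14.7 CPM in their siControl counterparts, and at 54.5 and 81.4 CPM in the 2 siPcgf5 morula libraries, against 74.6 and 66.3 CPM in their siControl counterparts. It rose by 1.83 (SE 0.31, edgeR adjusted p 0.00056) in siControl and by 1.52 (SE 0.31, adjusted p 0.0018) in siPcgf5, where limma on TPM gave 0.59 and did not pass. Chaf1a stood at 9.38 and 11.4 CPM in the 2 siPcgf5 late 2-cell libraries, against 12.0 and 7.36 CPM in their siControl counterparts, and at 15.2 and 12.5 CPM in the 2 siPcgf5 morula libraries, against 11.0 and 7.56 CPM in their siControl counterparts, so the stages overlapped in siControl. Its siControl fold change was -0.05 (95% interval -0.90 to 0.80). Ubxn6, whose span overlaps Chaf1a, rose by 3.15 (SE 0.44) in that comparison. In TPM, Chaf1b stood 14.1 ± 2.5 times as high as Chaf1a in siControl morulae and 3.72 ± 0.10 times in siControl late 2-cell libraries (SD, n = 2 each). Morc3 and Chaf1b are neighbours on chromosome 16, 7823 bases apart.

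By level per length, Trim28 led in morulae at 58.1 ± 9.8 TPM in siControl, then Chaf1b at 32.1 ± 2.5 and Morc3 at 22.6 ± 2.9 TPM (SD, n = 2 each), and the other 7 stood at or below 4.30 TPM. The ranges of Trim28 and Chaf1b did not overlap. At the late 2-cell stage in siControl, Morc3 (23.4 TPM), Suv39h2 (20.0 ± 9.8), Chaf1b (18.5 ± 7.9) and Trim28 (16.3 ± 0.70) overlapped in part, and Ehmt2 (1.60 ± 0.18) was the lowest. Morc3 led in all 3 groups at the 4-cell stage, at 47.5 ± 0.64 TPM in Homo KO, 65.6 ± 5.7 in Hetero KO and 55.2 ± 7.1 in WT.

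The WT 4-cell libraries were also set against both siControl stages, in comparisons that share libraries with those above. In these comparisons stage and experiment cannot be told apart. Against siControl late 2-cell embryos, 4 members rose and 0 fell, where 17.5% and 15.2% of 16669 genes did with edgeR (32.6% in all). Those that rose were Morc3, Ehmt2 (1.96, SE 0.39), Trim28 (1.21, SE 0.23) and Ehmt1. Groups did not overlap for 9 members and for 68% of genes. Suv39h2 (-0.88, adjusted p 0.066), Setdb1 (0.64), Chaf1a (1.05), Chaf1b (0.65), Daxx (0.59) and Suv39h1 (-0.33) did not pass. From WT 4-cell embryos to siControl morulae, Trim28 (1.62, SE 0.23) and Chaf1b (1.18, SE 0.33) rose and Ehmt1, Suv39h2 (-1.05, SE 0.35) and Morc3 (-0.66, SE 0.21) fell, where 14.9% and 15.3% of genes did (30.2% in all). Here too 9 members did not overlap, as did 65.6% of genes. The values of the others were 0.46 for Ehmt2 (-0.15 on the log2 TPM scale), 0.69 for Daxx, -0.27 for Suv39h1, -0.60 for Setdb1 and -1.11 for Chaf1a. Of these others, Chaf1a and Setdb1 each passed in 2 of 10 other settings and Suv39h1 in 1. Among the members called from WT 4-cell embryos to siControl morulae, the call was lost in 5 of 10 other settings for Morc3. It was lost in 3 of 10 each for Suv39h2 and Chaf1b. Single libraries ended it for Morc3 (-0.35 without WT library 2, -0.77 and -0.50 without siControl morula library 1 or 2), for Suv39h2 (-0.65 without WT library 1, -1.08 and -0.96 without siControl morula library 1 or 2) and for Chaf1b (1.07 without WT library 1, 1.13 without siControl morula library 1).

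**Figure D3:**
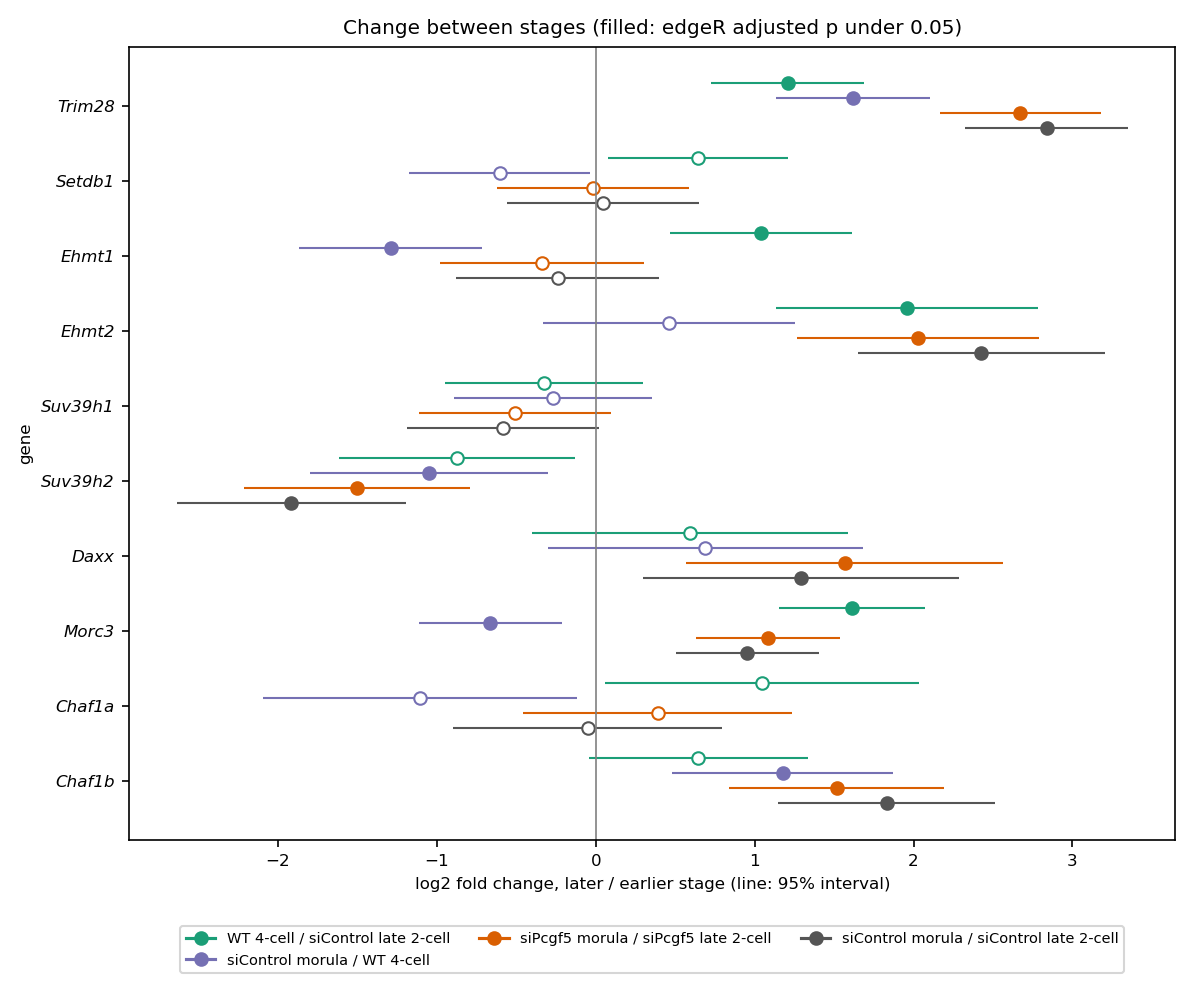
Log2 fold change of each gene, later stage over earlier stage, in 4 comparisons (points, filled where the edgeR adjusted p was under 0.05, with 95% intervals as lines). Trim28 and Ehmt2 rose by 2.84 and 2.43 in siControl and by 2.67 and 2.03 in siPcgf5, while Suv39h2 fell in both; Morc3 rose here but stood at -0.05 in siControl on the log2 TPM scale.

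Knockdown of Pcgf5 was not followed by a called change in any of the 10 genes. At the late 2-cell stage 0 of 10 passed with edgeR, 0 had an unadjusted p under 0.05 and 0 passed with DESeq2, while 0.0118% of all genes passed (0.00589% higher and 0.00589% lower). Fold changes ran from -0.28 for Suv39h2 to 0.53 for Ehmt2, with 8 of 10 positive. The smallest p-values belonged to Ehmt2 (0.53, 95% interval -0.22 to 1.28), Trim28 (0.40, -0.08 to 0.88) and Suv39h2 (-0.28, -0.97 to 0.41), all with edgeR adjusted p of at least 0.934. Groups did not overlap for 4 members, where 31.1% of all genes did not. Without siControl late 2-cell library 1 the Suv39h2 value was 0.27. Late 2-cell marker genes (6 of the Zscan4, Tcstv and Usp17l families) summed to 2128 to 2821 CPM in siPcgf5 and to 1412 to 1646 CPM in siControl, and their part was not tested.

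In morulae again 0 of 10 passed with edgeR or DESeq2 and 0 had an unadjusted p under 0.05, where 0% of all genes passed with edgeR. The values ran from -0.06 for Chaf1b to 0.56 for Chaf1a, with 8 of 10 positive. Chaf1a had the smallest p (0.56, 95% interval -0.29 to 1.41), before Trim28 (0.23, -0.24 to 0.71) and Morc3 (0.20, -0.24 to 0.65). Groups did not overlap for 5 members, against 31.4% of all genes. The difference between the 2 knockdown effects was tested too: 0 of 10 members and 0% of genes passed, with values from -0.40 for Ehmt2 to 0.44 for Chaf1a. Over both stages the 95% intervals reached from -1.14 (Daxx) to 1.41 (Chaf1a), so doublings of the less abundant members were within them and no finding of equal level is made.

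Loss of the MT2C_Mm repeat likewise gave no called member at the 4-cell stage. Between Homo KO and WT 0 of 10 passed with edgeR or DESeq2, 0% of 13766 genes passed with edgeR, and 1 member, Ehmt2, had an unadjusted p under 0.05, as did 12.4% of all genes, so 1 of 10 was near the background. Ehmt2 stood at 7.66, 5.91 and 9.23 CPM in Homo KO, against 13.0 and 15.1 CPM in WT, and the groups did not overlap. Its log2 fold change was -0.88 (95% interval -1.71 to -0.06) with an edgeR adjusted p of 0.38. The next smallest p-values were those of Setdb1 (0.47, interval -0.10 to 1.03) and Chaf1a (-0.54, -1.51 to 0.43). Groups did not overlap for 2 members, where 30.4% of all genes did not.

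Between Hetero KO and WT 0 of 10 members and 0% of genes passed with edgeR, and 0 members had an unadjusted p under 0.05 or passed with DESeq2. Suv39h1 stood at 33.1, 24.4 and 32.4 CPM in Hetero KO and at 23.0 and 15.7 CPM in WT (0.63, 95% interval -0.03 to 1.29), the only member without overlap, where 20.6% of genes had none. Chaf1b (0.39) and Trim28 (-0.30) followed. Between Homo KO and Hetero KO 0 of 10 passed with edgeR or DESeq2, 2 had an unadjusted p under 0.05 beside 8.22% of all genes, and 0% of genes passed with edgeR. Here Morc3 (-0.46, 95% interval -0.86 to -0.05), Ehmt2 (-0.82, -1.57 to -0.07) and Trim28 (0.41, -0.04 to 0.85) had the smallest p, with edgeR adjusted p of 0.57, 0.59 and 0.64. Morc3 stood at 164, 153 and 150.2 CPM in Homo KO and at 196, 194 and 254 CPM in Hetero KO, without overlap, as did 4 members in all and 14.7% of genes. Late 2-cell markers summed to 186 to 317 CPM in Homo KO, 41.0 to 97.5 CPM in Hetero KO and 20.8 to 231 CPM in WT. Oocyte genes summed to 486 to 529 CPM in Homo KO, 280 to 635 CPM in Hetero KO and 354 to 375 CPM in WT. The part of these markers was not tested.

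**Figure D4:**
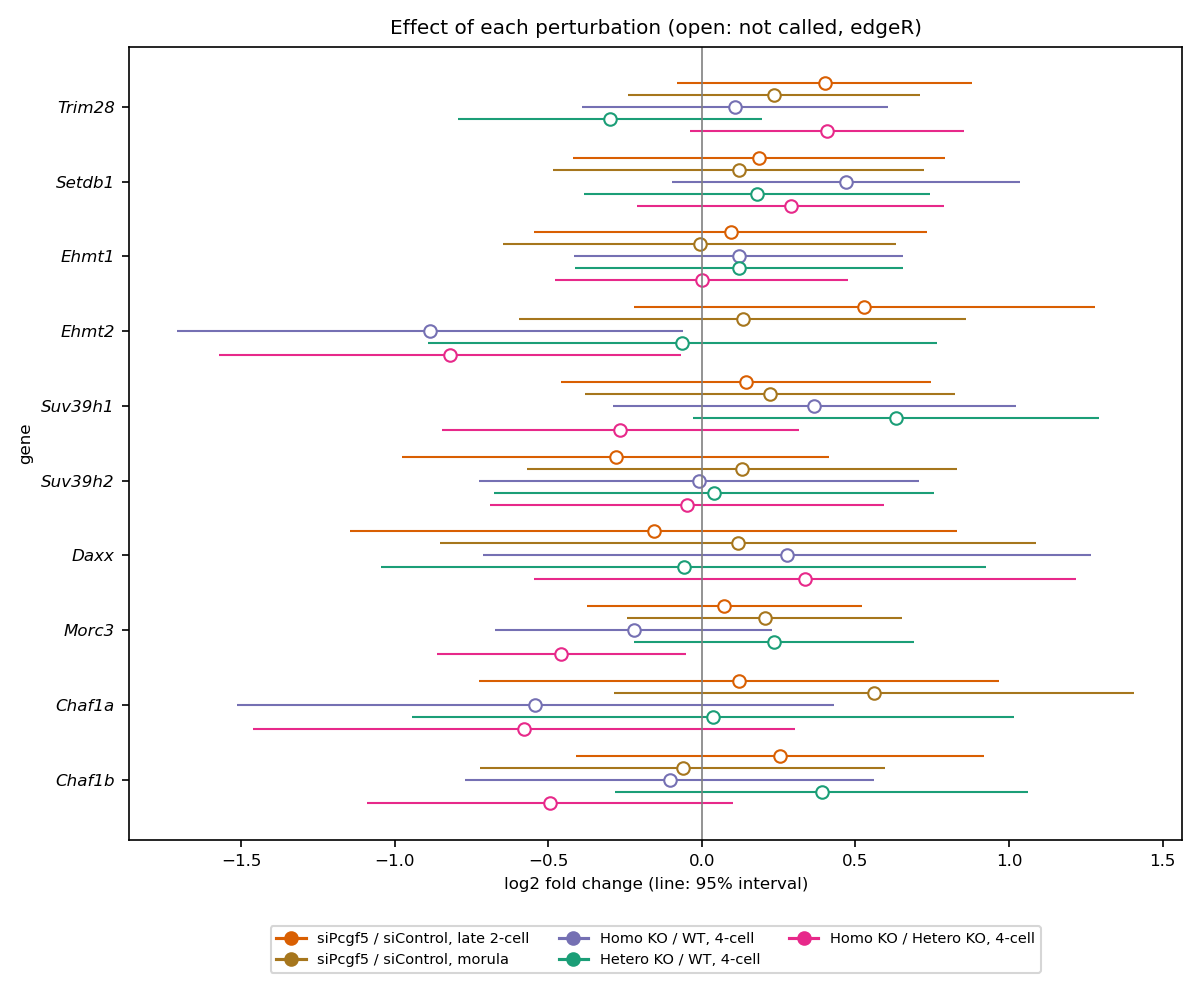
Log2 fold change of each gene in 5 perturbation comparisons (points with 95% intervals; open points did not pass with edgeR). All 50 points are open, and the intervals that lie below 0 are those of Ehmt2 in Homo KO set against WT or against Hetero KO and of Morc3 in Homo KO against Hetero KO.

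The other genes of the pathway were read from a list of 62 (KRAB proteins, SETDB1 and SUMO partners, HUSH, HP1, H3.3 and demethylase genes). Between siControl morula and late 2-cell embryos 18 rose and 18 fell, and between siPcgf5 stages 17 rose and 17 fell, with 15 and 16 of these called in both. The share of all genes called in both was not counted, so this overlap is not read as a trait of the list. Over all genes 24.9% rose and 28.1% fell in siControl and 24.5% and 28.2% in siPcgf5, so the list's shares (29% each way in siControl, 27.4% each way in siPcgf5) were near the background. The list's median was -0.03 in siControl, beside -0.34 over all genes. With edgeR, Zfp42, a zinc finger protein of stem cells, stood at 162 CPM in siControl morulae and 31.6 CPM at the late 2-cell stage (2.36, SE 0.25), and Sumo2, a modifier that TRIM28 carries, rose by 2.02 (SE 0.27). Sae1, of the SUMO-activating enzyme, rose by 1.50 (SE 0.21) and Kdm1a, a demethylase, by 1.71 (SE 0.25). Those that fell most clearly were Zfp57, a KRAB zinc finger of imprinted loci (-3.18, SE 0.35), Atf7ip2, a relative of a SETDB1 partner (-2.98, SE 0.33), Setdb2 (-2.96, SE 0.27) and Ubn1, of the HIRA complex (-1.85, SE 0.27). In siPcgf5 Zfp42 rose by 2.11, Rbbp4, the third CAF-1 subunit, by 1.93, Sumo2 by 1.85 and Sae1 by 1.69, while Atf7ip2 (-3.24), Zfp57 (-2.99), Setdb2 (-2.51) and Rif1 (-1.34), which is known to restrain retroelements in mouse stem cells, fell.

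Of the same list 19 rose and 7 fell between WT 4-cell and siControl late 2-cell embryos, among them Zfp644, a partner of EHMT1 and EHMT2, at 620.5 CPM in WT 4-cell and 100.03 CPM in siControl late 2-cell embryos (2.63, SE 0.25). These are 30.6% and 11.3% of the list, beside 17.5% and 15.2% of all genes. Sumo2 (2.19), Kdm1a (2.17) and Sae1 (1.56) rose too, while Sp100 (-3.41), Zfp57 (-1.57), Cbx1 (-1.47) and Zfp42 (-1.13) fell. The call was lost in 4 of 10 other settings for Sp100, 3 for Cbx1 and 2 for Zfp57. Without siControl late 2-cell library 1 none of the 3 passed (-3.48, -0.92 and -1.11), nor did they without WT library 2 (-2.76, -1.37 and -1.38), and without siControl late 2-cell library 2 Sp100 (-3.44) did not. From WT 4-cell embryos to siControl morulae 7 rose, among them Zfp42 (3.48), Asf1a, a histone chaperone (1.20) and Rbbp4 (1.15), the last 2 with a call lost in 1 of 10 other settings, and 18 fell, with Zfp644 (-4.05), Atf7ip2 (-2.27), Ubn1 (-2.14) and Rif1 (-1.83). These are 11.3% and 29% of the list, beside 14.9% and 15.3% of all genes. In the perturbation comparisons 0 of the tested list genes passed with edgeR (62 in the knockdown, 60 at the 4-cell stage), and DESeq2 called 1, in Homo KO against WT. Of the list, 0 genes had an unadjusted edgeR p under 0.05 in each knockdown comparison, 9 in Homo KO against WT, 3 in Hetero KO against WT and 1 in Homo KO against Hetero KO. Those are 15%, 5% and 1.67% of the list, beside 12.4%, 4.76% and 8.22% of all genes.

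The member whose course over the 16 libraries was most like another's was Setdb1 to Ehmt1, with a root mean square difference of 0.352 on the log2 scale after centring each gene, and Daxx to Chaf1b at 0.413. Among 16668 genes, Ehmt1 ranked only 237 in nearness to Setdb1, and Setdb1 ranked 225 in nearness to Ehmt1. Chaf1b ranked 557 for Daxx, and Daxx ranked 234 for Chaf1b. Many genes outside the members were thus nearer, and these pairs are not read as sharing a particular course. Genes with Gm-number or Rik names were left out of the search for each nearest gene. Among the rest the nearest to Trim28 was Ccdc124 (0.219), to Ehmt2 Pmpcb (0.210), to Morc3 U2surp (0.181) and to Daxx Ywhaq (0.191). For Setdb1 it was Nf2 (0.220), for Ehmt1 Atp13a3 (0.205), for Suv39h1 Apip (0.241) and for Suv39h2 Ube4b (0.240). For Chaf1a it was AI597479 (0.328) and for Chaf1b Ap2b1 (0.282). These are descriptions over libraries that share their stage differences.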

How the data were processed

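Per the labels' protocols, the 16 RNA libraries were made with the SMART-Seq v4 PLUS kit. The deposited tables hold, per the file headers, an RSEM expected count per gene, not normalized, and TPM, scaled by the authors' RSEM run to a common total. Per the submitters' processing notes, the tools were deepTools, Bowtie2 2.4.5, STAR 2.7.10 and RSEM 1.3.3, and the build mm10; the role of each is not given. Strandedness and read filters are not given in the sources used here. The 4 chromatin libraries were not analysed here.

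Expected counts were rounded to whole numbers, filtered with filterByExpr (minimum count 10), TMM-scaled and put through the robust quasi-likelihood test of edgeR 4.0.16 under R 4.3.3, a two-sided test. P-values were adjusted by Benjamini-Hochberg over all genes of a fit, with a threshold of 0.05. The 8 knockdown and 8 4-cell libraries were fitted apart (16980 and 13766 genes), and comparisons of WT 4-cell with knockdown groups used all 16 libraries (16669 genes). No replicate block was used. Scripts were tested on simulated counts. Alternatives were DESeq2 1.42.0 size factors and Wald test, no filter, limma 3.58.1 on log2(TPM + 1) of the deposited TPM, a replicate block, other sets of libraries, and leaving out each library. A lone library left in a group is assumed to vary like the others.

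The members, the pathway list, the markers and the rule for named genes were chosen with earlier results of these data known. All members are named in stage comparisons, and elsewhere the 3 with the smallest p. Of the pathway list, the 4 genes with the smallest p in each direction are named, except 1 that is not reported here. Promoter sequences are RefSeq's.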

Additional observations from a re-analysis of the deposited data

How the results depend on the processing

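In siControl morula against late 2-cell, members called lower were 2 with DESeq2 size factors and 2 with the DESeq2 test, which added Suv39h1; limma on log2(TPM + 1) called 3 members higher and 4 lower, and 7 and 29 pathway genes. In siPcgf5 limma called 2 and 4 members and 9 and 31 pathway genes. The members that limma called lower were Setdb1, Ehmt1, Suv39h1 and Suv39h2 in both siControl and siPcgf5. For WT 4-cell against siControl late 2-cell, 1 member was lower with DESeq2 size factors, the DESeq2 test or limma; pathway genes were 12 and 11 with limma and 7 and 4 with only the groups compared. For siControl morula against WT 4-cell limma called 1 member higher and 6 lower, and 2 and 30 pathway genes. Over all genes limma called 1673 higher and 3591 lower there. It called 2474 and 7431 between siControl stages, 2579 and 6894 between siPcgf5 stages, and 2389 and 5229 for WT 4-cell against siControl late 2-cell. With only the groups compared the last were 1707 and 2352. The lean to lower calls was thus not confined to the members and the list. DESeq2 called 1 pathway gene higher in Homo KO against WT. With the replicate block 3 pathway genes were lower in WT 4-cell against siControl late 2-cell and 10 in siControl morula against WT 4-cell, where Morc3 (-0.54) no longer passed; the block changed no other member call. The sources used here do not state that replicate numbers pair the libraries, and the numbers were not taken as pairs. The deviations of same-numbered libraries from their own group means correlated over genes between -0.118 and 0.153.

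Fold changes that turned were Setdb1 in siControl (-0.12 with DESeq2 size factors, -0.13 with DESeq2, -0.79 with limma), Setdb1 in siPcgf5 (0.0025 with 1 fit over 16 libraries), Morc3 in siControl (-0.055 with limma), Chaf1a in siPcgf5 (-0.38 with limma) and Ehmt2 in siControl morula against WT 4-cell (-0.15 with limma). With single libraries left out, Suv39h2 ran from -0.68 to 0.27 in siPcgf5 against siControl at the late 2-cell stage and from -0.11 to 0.84 in the difference of the knockdown effects, Chaf1a from -0.40 to 0.35 and Setdb1 from -0.19 to 0.28 between siControl stages, Setdb1 from -0.11 to 0.085 between siPcgf5 stages, and Suv39h1 from -0.50 to 0.080 in siControl morula against WT 4-cell. Members called lower ran from 1 to 2 between siControl stages, from 0 to 1 in WT 4-cell against siControl late 2-cell (higher, 3 to 4) and from 1 to 2 in siControl morula against WT 4-cell, where those higher ran from 1 to 2. Pathway genes lower ran from 11 to 16 between siControl stages, from 11 to 17 between siPcgf5 stages, from 2 to 5 in WT 4-cell against siControl late 2-cell (higher, 11 to 20) and from 8 to 13 in siControl morula against WT 4-cell.

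Trim28, Ehmt2 and Suv39h2 kept their direction and call in all 11 alternatives of both late 2-cell to morula comparisons. Their size moved: the smallest siControl rises were 1.76 for Trim28 and 1.02 for Ehmt2. Over all genes DESeq2 called 72, 23 and 32 genes in the knockdown comparisons and their difference, against 2, 0 and 0 with edgeR, and 333, 7 and 111 in the Homo KO, Hetero KO and Homo KO against Hetero KO comparisons, against 0 in each with edgeR. Other causes of these differences were not tested. With 2 or 3 libraries per group, changes of the size of the intervals could be missed for Daxx, Ehmt2 and Chaf1a in the perturbation comparisons.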
